A study of Mus musculus with 14 samples.

Results

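Chemokines are small secreted or membrane-anchored proteins, and their receptors sit on the surface of the cells that they guide. The genes described here are the 59 protein-coding genes of the deposited table whose symbols begin with Ccl, Cxcl, Cx3cl, Xcl, Ccr, Cxcr, Cx3cr, Xcr or Ackr followed by a digit, leaving out Cxcl12, out of 55335 genes in all. They comprise 36 ligands, 19 receptors that signal through G proteins and 4 atypical receptors. Of these, 37 (19 ligands, 14 signalling receptors and all 4 atypical receptors) had enough counts to enter the test, which covered 21509 genes. The 22 that did not are accounted for at the end of the receptor section.

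The libraries came from bone marrow of reporter mice carrying Cdh5 CRE and Rosa26 TdTomato, in which the promoter of the vascular cadherin gene Cdh5 drives the recombinase and so the red label. All 4 groups shared this genotype and the same sort for TdTomato+ cells without lineage markers or CD45. Untreated mice gave 4 libraries. TBI, 500 cGy of external Cesium irradiation of the whole body, gave 5, IgG RIT, 20 µCi of radioimmunotherapy on a non-targeted IgG, gave 3, and CD45 RIT, 20 µCi on an antibody against CD45, gave 2, with the treated mice harvested 8 days later. The series title names the radionuclide of the CD45 antibody as astatine-211, and animal ages are not given in the sources used here. Nothing in the labels ties libraries to separate animals, so the p-values measure the spread between these libraries, which may be technical.

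The label of the sorted cells is set against marker genes here, ahead of the chemokine values. Cdh5 itself had 0 to 6 counts in the untreated libraries and 0 in all RIT libraries. Pecam1, another endothelial surface gene, had 894 to 1957 counts untreated and 4 to 6 after CD45 RIT. Summed CPM of all 12 endothelial markers was 138 ± 26.4 untreated, 43.6 to 109 after TBI, 54.2 ± 4.61 after IgG RIT, and 68.4 and 139 after CD45 RIT. Of the 10 tested, edgeR called Pecam1, Tie1 and Erg lower and Kdr higher after CD45 RIT against untreated, Kdr with 1 and 2390 counts in its libraries. Ptprc, the gene of CD45, had 1578 to 3273 counts untreated, 71 to 1424 after TBI, 78 to 286 after IgG RIT and 1 to 662 after CD45 RIT. The 10 haematopoietic progenitor markers, Ptprc among them, summed to 1478 ± 237, 399 ± 181, 120 ± 23.6 and 160 ± 67.0 CPM in that order. The 8 B cell markers summed to 1041 ± 667, 1762 ± 993, 251 ± 182 and 384 ± 9.31 CPM. The libraries held 16400000 to 31100000 counts, and 3 counts were worth 0.0785 to 0.215 CPM (counts scaled to a common library size, for single genes with TMM factors). Summed CPM of 12 stromal markers was 4795 ± 1960 (SD, n = 4) untreated, 1424 ± 538 (n = 5) after TBI, 562 ± 379 (n = 3) after IgG RIT, and 17742 and 36017 after CD45 RIT. Summed CPM of 12 neutrophil markers was 11645 ± 1201 untreated, 680 ± 458 after TBI, 724 ± 107 after IgG RIT and 9.98 ± 6.66 (n = 2) after CD45 RIT. Mpo alone averaged 7512 CPM untreated. Of the 12, 5 were called lower after TBI, 6 after IgG RIT and 8 after CD45 RIT, against untreated. S100a8, S100a9, Ltf, Camp and Ngp averaged more after IgG RIT than untreated, S100a8 at 34.0 ± 41.3 against 10.3 ± 5.36 CPM. The erythroid list summed to 7894 to 14744 CPM untreated, 25343 to 44075 in 4 TBI libraries, 175088 in TBI replicate 6, 132916 to 141074 after IgG RIT, and 191271 and 47435 after CD45 RIT. The CD45 RIT libraries correlated at 0.673 on log CPM, against 0.906 to 0.979 for the other pairs of replicates. In such bulk samples fewer cells of a type and less RNA per cell cannot be told apart.

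Chemokine ligands bind the extracellular matrix and receptors of passing cells, and set up gradients along which leukocytes move. Signalling receptors couple to inhibitory G proteins and turn binding into movement, while atypical receptors bind ligands without that coupling and remove, carry or store them. In bone marrow these genes are known for releasing neutrophils and monocytes into the blood and for keeping blood-forming cells near stromal and vascular cells.

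Promoter sequence was read for 3 ligands, namely the most abundant ligand after CD45 RIT, a ligand found almost only there, and a ligand that was lower in all 3 treated groups. The RefSeq promoter table (build GRCm38.p6) held 28 of the 37 tested members, and the 250 bases before the start were searched on both strands. The RefSeq start closest to the deposited gene start was used. It lay 88772 bases from that start for Ccr9, 1583 for Cx3cr1 and at most 290 (Ackr4) for the other members. The 3 windows are chr13:56296552-56296801 on the minus strand for Cxcl14, chr5:90890995-90891244 on the plus strand for Cxcl1, and chr11:83578637-83578886 on the minus strand for Ccl9. Capitals mark GAAANNGAAA, the core of the interferon-stimulated response element, in Cxcl14 and the NF-kB consensus in Cxcl1 and Ccl9. Over 32851 promoter windows of this length, 2.98% held the first motif and 7.25% the second, and among the 28 members 3 and 6 did.
Cxcl14: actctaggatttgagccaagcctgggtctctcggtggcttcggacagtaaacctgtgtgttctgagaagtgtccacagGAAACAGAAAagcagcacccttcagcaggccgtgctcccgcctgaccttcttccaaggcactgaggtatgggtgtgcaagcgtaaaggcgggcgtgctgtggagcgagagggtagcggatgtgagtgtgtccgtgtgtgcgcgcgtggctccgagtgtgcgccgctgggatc
Cxcl1: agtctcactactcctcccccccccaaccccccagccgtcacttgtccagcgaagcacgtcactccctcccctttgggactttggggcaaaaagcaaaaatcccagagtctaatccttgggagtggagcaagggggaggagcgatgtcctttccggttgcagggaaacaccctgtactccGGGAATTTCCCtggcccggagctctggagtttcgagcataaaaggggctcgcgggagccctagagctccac
Ccl9: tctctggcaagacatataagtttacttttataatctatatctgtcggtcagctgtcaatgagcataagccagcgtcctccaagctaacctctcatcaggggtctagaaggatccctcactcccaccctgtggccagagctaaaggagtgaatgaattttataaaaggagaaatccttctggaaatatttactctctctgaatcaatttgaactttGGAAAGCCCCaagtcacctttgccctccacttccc
In Cxcl1 the capitals hold 2 overlapping matches. The other NF-kB matches were in Cxcl10, Ackr2, Ccr1 and Ccr3, and the other matches of the interferon motif in Ccl19 and Cxcl10. Of the other motifs searched, TTCNNNGAA (GAS) was in 7.02% of windows and in Cxcl14 and Ccr6. GAGGAAGT (PU.1) was in 2.44% and in Cxcr3, and TTGCNNNAA (C/EBP) in 8.29% and in Ackr1 and Cxcl1. A match is a description of these letters and not a bound site.

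The make-up of the ligand transcripts differed between the groups. Divided by gene length, summed ligand CPM per kilobase was 216 to 356 in the untreated libraries, 26.0 to 50.7 after TBI, 19.7 to 36.9 after IgG RIT, and 1021 and 1735 after CD45 RIT. Ccl3, Ccl4, Ccl6 and Ccl9, grouped here after their values were seen, made up 72.1% to 88.8% of that sum untreated and 63.5% to 79.6% in 4 TBI libraries. Their share was 30.7% in TBI replicate 6, 19.0% to 33.8% after IgG RIT, and 0.685% and 2.42% after CD45 RIT. Cxcl14 led in TBI replicate 6 and in every RIT library, with 41.7% to 47.7% after IgG RIT and 84.5% and 64.1% after CD45 RIT. Without length division, summed CPM of the 19 signalling receptors was 103 ± 30.4 (SD, n = 4) untreated, 39.6 ± 11.9 (n = 5) after TBI, 38.2 ± 8.04 (n = 3) after IgG RIT and 8.91 ± 8.86 (n = 2) after CD45 RIT. The 4 atypical receptors summed to 69.7 ± 11.0, 125 ± 70.3, 220 ± 31.5 and 563 ± 149 CPM in the same order.

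**Figure D1:**
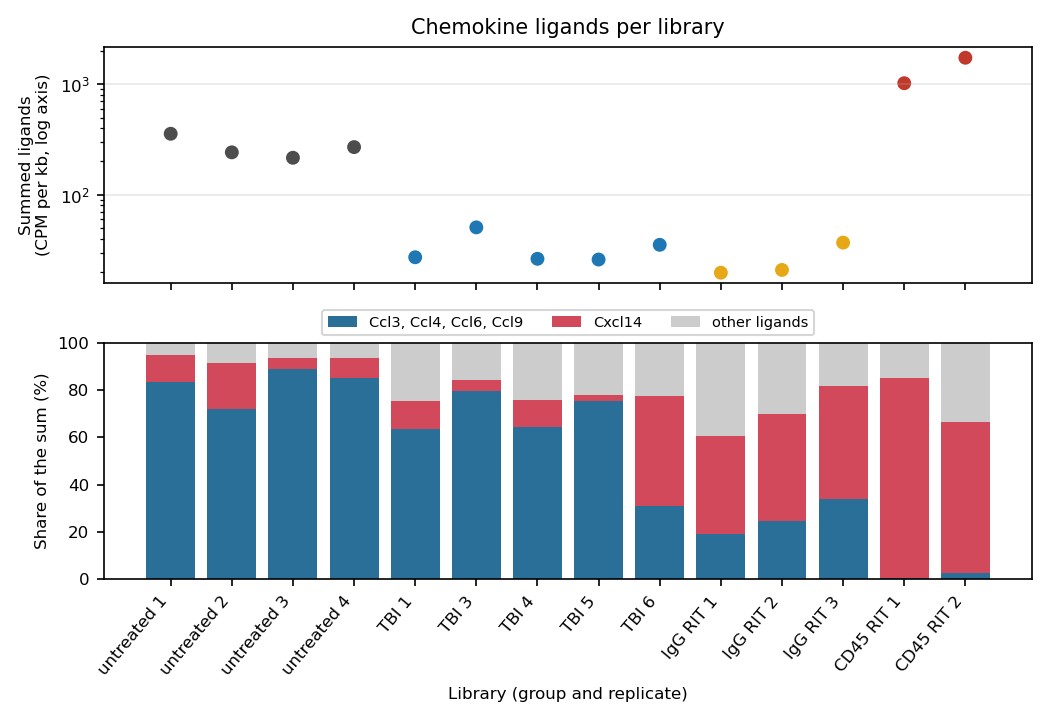
Summed ligand CPM per kilobase (upper panel, log axis) and its make-up in percent (lower panel) by library, split into Ccl3, Ccl4, Ccl6 and Ccl9 together, Cxcl14, and all other ligands. The first set makes up 72.1% to 88.8% of the untreated libraries and Cxcl14 makes up 84.5% and 64.1% of the CD45 RIT libraries.

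Counts of called members are read against those of all genes, with calls at an adjusted p under 0.05 by edgeR's quasi-likelihood test. TBI against untreated gave 0 members higher and 6 of 37 lower, where 0.921% of all genes tested were higher and 3.38% lower. For IgG RIT against untreated the members' counts were 0 higher and 7 lower, against 5.75% and 10.7% of all genes. CD45 RIT against untreated gave 11 higher and 8 lower, against 14.5% and 18.6%. CD45 RIT against IgG RIT gave 14 higher and 4 lower, against 20.2% and 17.5%, and IgG RIT against TBI gave 0 higher and 1 lower, against 0.0697% and 0.172%. Members with an unadjusted p under 0.05 in either direction numbered 15, 13, 22, 23 and 7 of 37 in that order, where 18.2%, 33.0%, 45.5%, 47.8% and 18.5% of all genes did. DESeq2 called 0 members higher after TBI, 1 (Ackr1) higher after IgG RIT and 1 (Ackr4) higher for IgG RIT against TBI, against 4.63%, 11.7% and 3.73% of all genes by DESeq2. Comparisons with untreated share the 4 untreated libraries.

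Ligands and signalling receptors parted after CD45 RIT, while the median of the atypical receptors lay near that of the ligands. The median log2 fold change against untreated was 2.37 over the 19 ligands tested, -5.72 over the 14 signalling receptors and 2.54 over the 4 atypical receptors, beside -0.37 over all genes. With genes at 0 counts set to their bound, as for 7 of the 14, the signalling receptors' median was -2.54. The ligand median is the value of Cxcl10, which edgeR did not call. After TBI the medians were -2.29 for ligands and -0.16 for all 18 receptors (all genes -0.16), and after IgG RIT -2.33 and -2.26 (all genes -0.42), or -1.42 and -1.60 with bounds. For CD45 RIT against IgG RIT they were 4.19 for ligands and -0.38 for receptors (-0.25 with bounds), with all genes at -0.13. For IgG RIT against TBI ligands stood at -0.35 and receptors at -0.48 (-0.15 with bounds), with all genes at -0.16. The filter before the test used the group labels, so a gene could enter through 1 group alone. Cxcl1, for example, entered through CD45 RIT, and Ccr6, with 0 counts there, through other groups. The filter can thus tilt these medians and the counts of calls by class.

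**Figure D2:**
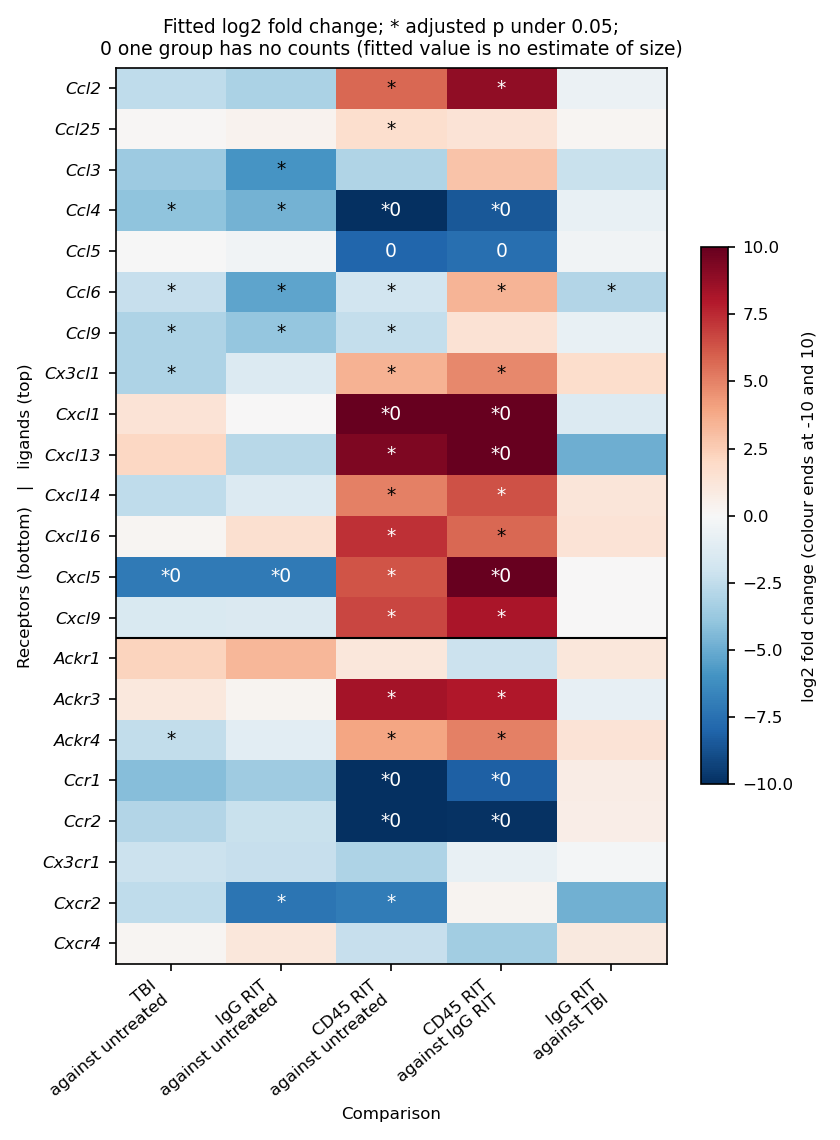
Fitted log2 fold change (colour scale ending at -10 and 10) of the 22 members printed by library, ligands above the line and receptors below it, in the 5 comparisons (columns). A star marks an adjusted p under 0.05 and a 0 a fold that is only a bound because 1 group had no counts, where the colour gives no size. Where both groups are at or under the floor, as for Cxcl1 in TBI against untreated, the colour gives no size either. Against untreated, 9 of 19 tested ligands were called higher after CD45 RIT and 5 of 14 signalling receptors lower, where 14.5% and 18.6% of all genes were.

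Library numbers in the labels run with the groups: untreated libraries and TBI replicates 1, 3, 4 and 5 have numbers under 10, and TBI replicate 6 and all RIT libraries have 10 or more. What a number marks is not given. Within numbers under 10, TBI against untreated gave 14 of 28 tested members lower and 1 higher (Ackr1), where 12.4% and 9.45% of all genes tested in that fit were called. With the number class as a term, which only TBI replicate 6 separates from RIT, IgG RIT against untreated gave 0 lower, against 0.0883% of all genes. CD45 RIT against untreated then gave 1 higher (Ackr4) and 2 lower (Ccl4 and Cxcr2), against 4.40% and 7.04%. For CD45 RIT against IgG RIT the counts with that term were 14 and 4, against 20.5% and 17.8%. Both RIT groups share the same number class, so the term cannot shift this comparison and these counts are no check of it. Every statement below on IgG RIT or CD45 RIT against untreated carries this limit. So does every statement on IgG RIT against TBI, where only TBI replicate 6 shares the number class of RIT. Except for Ccl6, the losses of single calls listed below leave out those with this term or with a replicate block. The calls kept with these are counted near the end.

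The inflammatory CC ligands draw monocytes, eosinophils and T cells, and 5 of the 7 in the list were tested: Ccl3, Ccl4, Ccl5, Ccl6 and Ccl9. They lie together at chr11:83525778-83664683 (GRCm38). Of the 5, 3 were lower after TBI, 4 after IgG RIT and 3 after CD45 RIT, each against untreated, where 3.38%, 10.7% and 18.6% of all genes were. Summed CPM of this list was 316 ± 48.7 untreated, 34.8 ± 20.0 after TBI, 9.88 ± 3.02 after IgG RIT and 30.2 ± 27.2 after CD45 RIT. The sums of the neutrophil list and of the eosinophil, basophil and mast cell list (9331 ± 1421, 1074 ± 634, 202 ± 187 and 0.251 ± 0.173 CPM) were also lower in these groups. Of the 12 neutrophil markers, 5, 6 and 8 were called lower after TBI, IgG RIT and CD45 RIT. The part of these cells in the result was not tested.

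Ccl9, which encodes a macrophage inflammatory protein, stood at 88.6, 108, 86.1 and 92.3 CPM in the untreated libraries. It stood at 5.34, 21.2, 12.4, 11.3 and 4.52 CPM in TBI replicates 1, 3, 4, 5 and 6, at 6.19, 6.92 and 6.62 CPM after IgG RIT, and at 7.25 and 27.8 CPM after CD45 RIT. Every treated library lay below every untreated one. The log2 fold change was -3.10 ± 0.48 (SE, edgeR adjusted p 0.00424) after TBI, -3.83 ± 0.61 (adjusted p 0.00298) after IgG RIT and -2.42 ± 0.67 (adjusted p 0.0161) after CD45 RIT. Without CD45 RIT replicate 1 the last was -1.76 with an adjusted p of 0.0513.

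Ccl6, a close relative of Ccl9, was at 58.5, 43.4, 44.9 and 51.7 CPM untreated, 5.98, 15.1, 8.58, 13.2 and 7.96 CPM after TBI, 0.637, 0.846 and 2.42 CPM after IgG RIT, and 8.29 and 18.7 CPM after CD45 RIT. It was lowest after IgG RIT, with no overlap between IgG RIT and any other group. Against untreated its log2 fold change was -2.29 ± 0.43 after TBI (adjusted p 0.0119), -5.25 ± 0.61 after IgG RIT (0.00143) and -1.88 ± 0.60 after CD45 RIT (0.0308), all by edgeR. Ccl6 was higher after CD45 RIT than after IgG RIT, by 3.37 ± 0.60 (adjusted p 0.00104). It was also the 1 member called between IgG RIT and TBI, at -2.96 ± 0.54 (adjusted p 0.049). That last call was lost with RLE factors (0.0602), with no filter (0.06) and without any 1 of 10 libraries (0.0741 to 0.151), namely each untreated library, TBI replicates 1, 3, 4 and 5, and IgG RIT replicates 1 and 2. It was also lost with the library number as a term and with the replicate number as a term (replicate block). Both terms also lost the Ccl6 call for CD45 RIT against untreated. The CD45 RIT call against untreated was lost without untreated replicate 1 (0.0563), untreated replicate 4 (0.054) or CD45 RIT replicate 1 (0.0997), and with RLE factors (0.0626).

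Ccl3, macrophage inflammatory protein 1 alpha, was at 91.1, 56.7, 66.0 and 67.9 CPM untreated and at 5.62, 11.2, 3.39, 5.05 and 2.44 CPM after TBI. It was at 1.04, 0 and 2.47 CPM after IgG RIT, and at 0 and 17.2 CPM after CD45 RIT. No treated library reached the untreated range, yet only IgG RIT passed the test, at -5.91 ± 1.63 (edgeR adjusted p 0.0287). The values were -3.66 ± 1.17 after TBI (adjusted p 0.103) and -3.03 ± 1.66 after CD45 RIT (0.169). With both CD45 RIT libraries left out of the fit, an alternative chosen after seeing the data, Ccl3 was also lower after TBI, by -3.54 ± 0.65 (0.00499). The IgG RIT call was lost without untreated replicate 1 (0.053), untreated replicate 4 (0.0533), IgG RIT replicate 1 (0.0984) or IgG RIT replicate 2 (0.0676).

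Ccl4, macrophage inflammatory protein 1 beta, was at 76.8, 26.9, 34.6 and 53.8 CPM untreated, 3.22, 6.88, 2.43, 1.22 and 1.15 CPM after TBI, 0, 1.59 and 3.78 CPM after IgG RIT, and 0 in both CD45 RIT libraries. It fell in all 3 treated groups. Against untreated the log2 fold change was -4.00 ± 0.96 after TBI (edgeR adjusted p 0.0404) and -4.74 ± 1.24 after IgG RIT (0.0256), and Ccl4 was at least 294-fold lower after CD45 RIT (0.00247), counting 3 counts per library as the floor. It was also at least 11.0-fold lower after CD45 RIT than after IgG RIT (0.0187), though the groups overlap at 0. Leaving out any untreated or TBI library, or IgG RIT replicate 2, lost the TBI call, with adjusted p from 0.0513 to 0.104. The IgG RIT call was lost without untreated replicate 1 (0.0528), untreated replicate 4 (0.0517) or IgG RIT replicate 2 (0.0894), and the call between the RIT groups without CD45 RIT replicate 1 (0.0503) or 2 (0.0723). Ccl5, a ligand made by T and NK cells, was at 0, 2.30, 1.73 and 0.797 CPM untreated, 1.17, 1.94, 0.858, 1.69 and 0.215 CPM after TBI, 0.579, 2.19 and 0 CPM after IgG RIT, and 0 in both CD45 RIT libraries. The untreated, TBI and IgG RIT groups overlapped, and edgeR called no comparison. DESeq2 called Ccl5 lower after CD45 RIT against untreated (adjusted p 0.00888) and against IgG RIT (0.0127). So did edgeR without untreated replicate 1 or IgG RIT replicate 3, and, against untreated, with no scaling factors (0.0453).

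**Figure D3:**
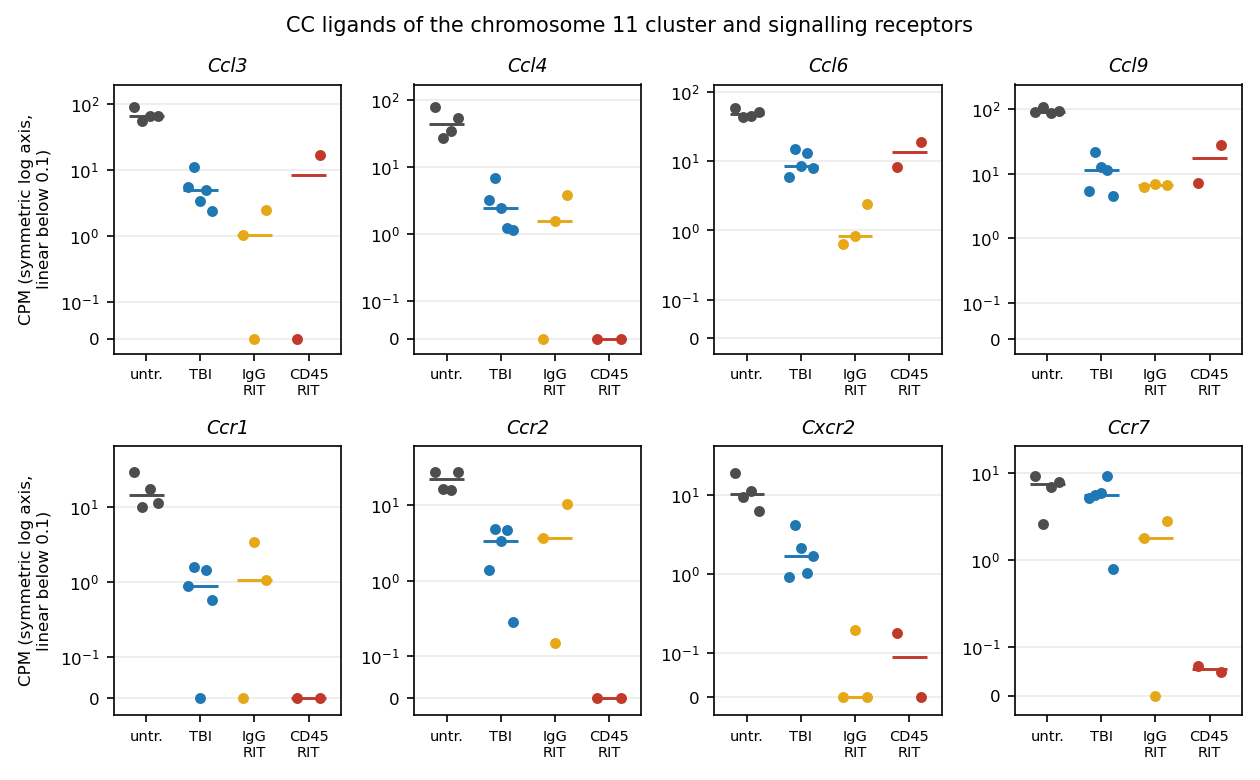
CPM by library (points, symmetric log axis, linear below 0.1) and group median (bar) of Ccl3, Ccl4, Ccl6 and Ccl9 and of the receptors Ccr1, Ccr2, Cxcr2 and Ccr7 in the 4 groups. Ccl4, Ccr1 and Ccr2 are at 0 in both CD45 RIT libraries.

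The ligands of CXCR2, which draw neutrophils, lie at chr5:90759360-90905938. Of the 5 in the list, Cxcl1 and Cxcl5 were tested and both were higher after CD45 RIT than in untreated or IgG RIT libraries. Cxcl1 had 0 counts in every untreated and IgG RIT library and 1 count in TBI replicate 1, but 150 and 1392 counts after CD45 RIT (9.14 and 66.9 CPM). That was at least 409-fold higher than untreated (edgeR adjusted p 5.28e-04) and at least 237-fold higher than IgG RIT (9.39e-04). Cxcl5 was at 1.20, 0.867, 0.300 and 0.277 CPM untreated, 0 in all 8 TBI and IgG RIT libraries, and 15.7 and 87.0 CPM after CD45 RIT. It was at least 4.94-fold lower after TBI (adjusted p 0.0294) and at least 4.13-fold lower after IgG RIT (0.0299). After CD45 RIT it rose by 6.26 ± 1.00 on the log2 scale against untreated (0.0047), and it was at least 320-fold higher than after IgG RIT (0.00144). Both of its lower calls rest on at most 46 counts in an untreated library and were lost when single libraries were left out. For TBI these were each untreated library and TBI replicates 1, 3, 4 and 5 (0.0504 to 0.0861), and for IgG RIT untreated replicates 1 and 2 and each IgG RIT library (0.056 to 0.0726). The other ligands of the list, Cxcl2, Cxcl3 and Cxcl15, had at most 6 counts in any library.

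Ligands of CXCR3, which draw activated T and NK cells and are induced by interferon, were represented by Cxcl9 and Cxcl10. Cxcl9 was at 0, 2.15, 2.67 and 2.18 CPM untreated, 0.460, 0.0346, 0.572, 0.135 and 2.08 CPM after TBI, 0, 0 and 1.94 CPM after IgG RIT, and 108 and 258 CPM after CD45 RIT. Both CD45 RIT libraries lay far above all others, with 1779 and 5361 counts. The log2 fold change was 6.71 ± 1.79 against untreated (edgeR adjusted p 0.0133) and 8.13 ± 2.16 against IgG RIT (0.0115). DESeq2 gave no p for Cxcl9. Cxcl10 was at 28.2 CPM in CD45 RIT replicate 1 and 0 in replicate 2, against 1.62 to 5.27 CPM untreated, and edgeR called no comparison with all libraries. For CD45 RIT against IgG RIT it was called lower without CD45 RIT replicate 1 (0.0439) and higher without replicate 2 (0.0223), against untreated lower without replicate 1 (0.0244), and within library numbers under 10 lower after TBI (0.0348). Its exons share 133 bases with Art3 on the other strand.

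Ccl2 and Ccl7, ligands of CCR2 that draw monocytes, were tested out of a list of 4. Ccl2 was at 2.62, 3.53, 0.701 and 1.87 CPM untreated, 0.354, 0.276, 0.191, 0.0339 and 1.15 CPM after TBI, 0.752, 0 and 0 CPM after IgG RIT, and 4.69 and 225 CPM after CD45 RIT. Replicate 1 lay close to the untreated range and replicate 2 far above it. The log2 fold change was 5.71 ± 1.50 against untreated (edgeR adjusted p 0.0125) and 8.85 ± 1.97 against IgG RIT (0.00433). Without CD45 RIT replicate 2 they were 1.07 (0.628) and 4.00 (0.0884). Ccl7 had 181 and 0 counts in the CD45 RIT libraries and none after IgG RIT, at least 34.4-fold higher (0.0247). Without CD45 RIT replicate 1 both groups were at 0, and without IgG RIT replicate 1, 2 or 3 the adjusted p was 0.0567, 0.0604 or 0.0573. Ccl8, also in the list, was not tested, and it had 948 counts in CD45 RIT replicate 2, 0 in CD45 RIT replicate 1 and at most 10 elsewhere.

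The 2 membrane-anchored ligands, Cx3cl1 and Cxcl16, can hold passing cells as well as attract them once shed. Cx3cl1, the ligand of CX3CR1, was at 31.3, 12.4, 13.7 and 14.4 CPM untreated, 1.56, 4.22, 2.81, 0.271 and 1.72 CPM after TBI, 5.73, 4.58 and 11.1 CPM after IgG RIT, and 112 and 292 CPM after CD45 RIT. TBI libraries were all below, and CD45 RIT libraries all above, the untreated ones. The log2 fold change was -3.08 ± 0.63 after TBI (edgeR adjusted p 0.0176) and 3.49 ± 0.75 after CD45 RIT (0.00429), and 4.82 ± 0.88 for CD45 RIT against IgG RIT (0.00126). After IgG RIT it was -1.33 ± 0.71 (0.211). Without untreated replicate 1 the TBI value was -2.67 (0.0519). Cxcl16, the ligand of CXCR6, was at 0, 0.0299, 0.567 and 0.519 CPM untreated, 0.637, 0.104, 0.238, 0.373 and 0.215 CPM after TBI, 1.27, 0 and 1.26 CPM after IgG RIT, and 24.7 and 64.5 CPM after CD45 RIT. It was higher after CD45 RIT by 7.32 ± 1.53 against untreated (0.00358) and by 5.72 ± 1.62 against IgG RIT (0.0158), on the log2 scale. Its exons share 552 bases with Zmynd15 on the other strand, which had at most 119 counts.

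Cxcl14, a ligand whose signalling receptor is unsettled, was the most abundant ligand per kilobase after CD45 RIT. It lies at chr13:56288643-56296551. Its level was 73.7, 86.1, 18.2 and 43.4 CPM untreated, 5.87, 4.18, 5.39, 1.32 and 30.0 CPM after TBI, 15.0, 17.3 and 32.2 CPM after IgG RIT, and 1576 and 2031 CPM after CD45 RIT. It was higher after CD45 RIT by 5.03 ± 0.95 against untreated (edgeR adjusted p 0.00191) and by 6.39 ± 1.13 against IgG RIT (9.95e-04), on the log2 scale. DESeq2 gave no p for it. After TBI the value was -2.58 ± 0.74 (0.0719), and it was called lower without TBI replicate 6, whose 30.0 CPM lay inside the untreated range. All 12 stromal markers were also called higher after CD45 RIT in both comparisons, with a median log2 fold change of 4.20 against untreated and 5.53 against IgG RIT. Monocyte and macrophage markers summed to 2568 and 2374 CPM after CD45 RIT against 353 ± 42.0 untreated, with 3182 ± 474 CPM (on the TMM scale) from Vcam1, which the stromal list also holds. Without Vcam1 the other 12 summed to 92.8 and 167 CPM after CD45 RIT and 259 ± 15.1 untreated. Of the 11 tested, Vcam1, Cd68, C1qa, C1qb and C1qc were called higher after CD45 RIT against untreated, and Csf1r, Cd163, Adgre1 and Ly6c2 lower. C1qa had 0 counts in 1 CD45 RIT library and 258 in the other, and C1qc had 2 in 1 and 637 in the other. Adgre1 and Ly6c2 had 0 counts in both CD45 RIT libraries, while Cd68 averaged 44.7 CPM against 13.4 untreated and C1qb 37.4 against 0.583. Ctsg and Elane, from neutrophil granules, averaged 0.024 and 0.0305 CPM after CD45 RIT. The part of stromal cells and of macrophages in the ligand values was not tested.

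**Figure D4:**
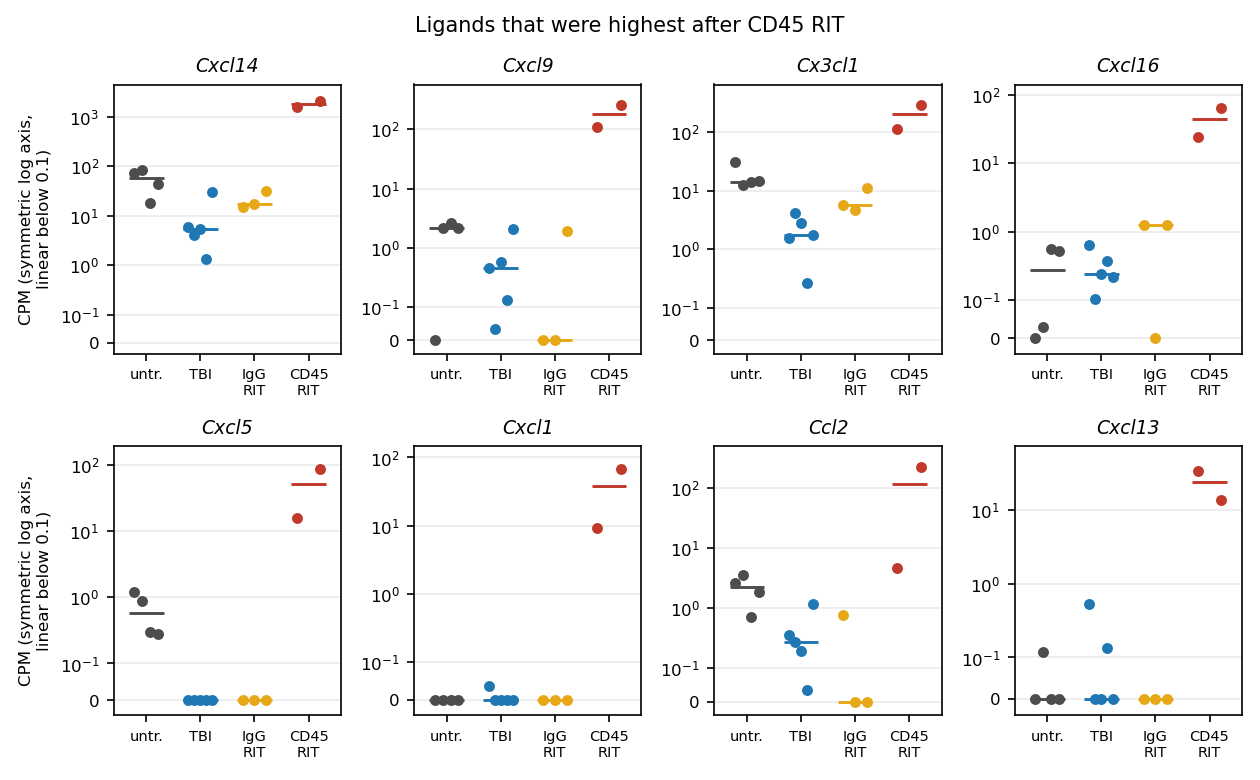
CPM by library (points, symmetric log axis, linear below 0.1) and group median (bar) of the 8 ligands called higher after CD45 RIT against both untreated and IgG RIT. Cxcl14 reaches 1576 and 2031 CPM, and Cxcl1 is at 0 CPM in all untreated and IgG RIT libraries.

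Ligands of lymphocyte homing guide B and T cells into lymphoid tissue, and 4 of the 7 in the list were tested. Cxcl13, the ligand of CXCR5, was at 0, 0.120, 0 and 0 CPM untreated, 0.531, 0, 0, 0.135 and 0 CPM after TBI, 0 in all 3 IgG RIT libraries, and 32.8 and 13.7 CPM after CD45 RIT. It was higher after CD45 RIT by 9.36 ± 1.87 on the log2 scale against untreated (edgeR adjusted p 0.00399) and at least 145-fold higher than IgG RIT (0.00489). Ccl19, a ligand of CCR7, averaged 7.46 CPM after CD45 RIT and 0.405 CPM after IgG RIT, a log2 fold change of 4.19 ± 0.93 (0.00422). Ccl25, the ligand of CCR9, was at 10.5, 7.42, 6.31 and 10.6 CPM untreated, 9.51, 9.92, 9.58, 10.7 and 6.82 CPM after TBI, 14.2, 8.96 and 9.61 CPM after IgG RIT, and 8.29 and 46.6 CPM after CD45 RIT. The first CD45 RIT library lay inside the untreated range, so the call of 1.66 ± 0.53 (0.0309) rested on replicate 2, and without it the value was -0.11 (0.859). It was also lost without untreated replicate 2 (0.0675) or 3 (0.0726), with no filter (0.063) and with no scaling factors (0.176). Exons of Ccl25 share 204 bases with Elavl1 on the other strand, which had up to 8598 counts. Ccl27a was at 3.17 to 5.08 CPM untreated and was called in no comparison by edgeR with all libraries and TMM scaling. It was called lower for CD45 RIT against untreated by DESeq2 (adjusted p 0.0262), with no scaling factors (0.0134) and without CD45 RIT replicate 1 (0.0125), and for IgG RIT against untreated with no scaling factors (0.0419).

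Of the 14 signalling receptors tested, 5 were lower after CD45 RIT (Cxcr2, Cxcr6, Ccr1, Ccr2 and Ccr7) and 2 after IgG RIT (Cxcr2 and Cxcr6), against untreated. Of all genes tested, 18.6% and 10.7% were lower there, so the count after IgG RIT is near that share. After TBI edgeR called 0 of 14, with 5 at an unadjusted p under 0.05, as were 18.2% of all genes. Cxcr2, the receptor that neutrophils use to leave the marrow, was at 19.0, 9.60, 11.3 and 6.27 CPM untreated, 0.920, 4.25, 2.15, 1.05 and 1.72 CPM after TBI, 0, 0.199 and 0 CPM after IgG RIT, and 0.183 and 0 CPM after CD45 RIT. No treated library reached the untreated range. The log2 fold change was -2.51 ± 0.82 after TBI (edgeR adjusted p 0.111) and -7.29 ± 1.32 after IgG RIT (0.00502). After CD45 RIT the ratio to untreated was 0.00671 (counting interval 0.00138 to 0.0197, adjusted p 0.00557), from 3 counts.

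Ccr2, the receptor by which monocytes leave the marrow, was at 27.7, 16.6, 16.1 and 27.7 CPM untreated, 1.38, 4.84, 3.39, 4.78 and 0.287 CPM after TBI, 3.65, 0.149 and 10.4 CPM after IgG RIT, and 0 in both CD45 RIT libraries. It was at least 135-fold lower after CD45 RIT than untreated (edgeR adjusted p 0.00376) and at least 28.9-fold lower than after IgG RIT (0.00851). Against untreated it was -2.90 ± 0.94 after TBI (0.116) and -2.22 ± 1.11 after IgG RIT (0.189). Ccr1, a receptor of Ccl3, Ccl6 and Ccl9, was at 29.7, 10.1, 17.2 and 11.4 CPM untreated, 0.884, 1.59, 0, 1.46 and 0.574 CPM after TBI, 0, 3.38 and 1.05 CPM after IgG RIT, and 0 in both CD45 RIT libraries. After CD45 RIT it was at least 105-fold lower than untreated (0.0101) and at least 9.04-fold lower than after IgG RIT (0.039), where the groups overlap at 0. The second call was lost without untreated replicate 3 or 4, TBI replicate 1 or 5, IgG RIT replicate 2 or 3, or either CD45 RIT library, with adjusted p from 0.0508 to 0.113. After TBI Ccr1 stood at -4.23 ± 1.19 (0.0707), and DESeq2 called 3 receptors, Ccr1, Ccr2 and Cxcr2, lower there, where 7.13% of all genes were.

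Cx3cr1, the receptor of Cx3cl1 on monocytes, was at 6.68, 6.91, 6.04 and 6.37 CPM untreated, 0.920, 1.04, 1.00, 2.57 and 1.79 CPM after TBI, 0, 0.149 and 3.78 CPM after IgG RIT, and 0.183 and 1.35 CPM after CD45 RIT. All treated libraries lay below all untreated ones, but edgeR called no comparison with all libraries, with log2 fold changes of -2.15 ± 1.01 (edgeR adjusted p = 0.286), -2.30 ± 1.23 (0.211) and -3.07 ± 1.52 (0.132) against untreated. It was called lower after TBI within library numbers under 10 (0.00375), and after IgG RIT (0.0116) and CD45 RIT (0.0333) without IgG RIT replicate 3.

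Cxcr6, the receptor of Cxcl16 on T and NK cells, averaged 3.30 CPM untreated, of which replicate 1 alone had 9.66 CPM. After CD45 RIT it was at 0, at least 20.2-fold lower (edgeR adjusted p 0.0209), and after IgG RIT the ratio was 0.00487 (counting interval 1.23e-04 to 0.0273, adjusted p 0.0252), from 1 count. The IgG RIT call was lost without untreated replicate 1 (0.0506) or IgG RIT replicate 1 (0.0883), 2 (0.089) or 3 (0.0598), and the CD45 RIT call without CD45 RIT replicate 2 (0.0693). Ccr7, the homing receptor of dendritic and T cells, averaged 6.68 CPM untreated, 1.54 CPM after IgG RIT and 1 count in each CD45 RIT library. Its ratio after CD45 RIT was 0.008 of untreated (interval 9.67e-04 to 0.029, adjusted p 0.0128) and 0.0357 of IgG RIT (0.00425 to 0.133, adjusted p 0.045). The first was lost without CD45 RIT replicate 2 (0.0521). The second was lost with no filter (0.0511) and without each of the untreated and CD45 RIT libraries, TBI replicates 1, 3, 4 and 5, and IgG RIT replicates 1 and 3 (0.0507 to 0.129). The 9 T and NK cell markers summed to 309 ± 72.7 CPM untreated, 13.0 ± 3.73 after IgG RIT and 0.0559 ± 0.0791 after CD45 RIT, most of it from Nkg7, a granule gene of NK and cytotoxic T cells. The other 8 summed to 5.82 ± 3.99, 0.833 ± 1.37 and 0.0373 ± 0.0527 CPM. Their part in these values was not tested.

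Ccr3, a receptor of eosinophils, Ccr9, the receptor of Ccl25, and Xcr1, a receptor of dendritic cells, were called in no comparison by edgeR with all libraries. DESeq2 called Ccr3 lower after CD45 RIT against untreated (adjusted p 0.0369) and against IgG RIT (0.00748), and edgeR called the second without untreated replicate 2 (0.0465) or IgG RIT replicate 2 (0.0392). Ccr9 had 239 and 0 counts in the CD45 RIT libraries, and its exons overlap 3 other genes.

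Cxcr4, the receptor that keeps blood-forming cells in the marrow, differed in pattern from the receptors above. It was at 13.7, 9.42, 21.2 and 14.1 CPM untreated, 11.2, 15.0, 13.5, 17.8 and 26.3 CPM after TBI, 30.8, 32.1 and 35.1 CPM after IgG RIT, and 6.03 and 0 CPM after CD45 RIT. IgG RIT libraries lay above, and CD45 RIT libraries below, all others. Neither difference passed, at 1.16 ± 0.91 for IgG RIT against untreated (edgeR adjusted p 0.401), -2.28 ± 1.17 for CD45 RIT against untreated (0.147) and -3.44 ± 1.28 for CD45 RIT against IgG RIT (0.0505). With both CD45 RIT libraries left out, Cxcr4 was higher after IgG RIT by 1.36 ± 0.34 (0.00894). The difference between the RIT groups was called with RLE factors (0.0476), no scaling factors (0.0365), no filter (0.0489) and DESeq2 (0.00305), all between -3.49 and -3.69.

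Of the 4 atypical receptors, Ackr3 and Ackr4 were higher after CD45 RIT and Ackr4 was lower after TBI, against untreated, where 14.5% and 3.38% of all genes were. Ackr1, which binds many inflammatory chemokines and is known on red cell precursors and venular endothelium, was at 29.0, 20.8, 30.2 and 18.7 CPM untreated, and at 56.1, 78.3, 67.1, 93.6 and 284 CPM after TBI. It was at 260, 202 and 281 CPM after IgG RIT, and at 110 and 0 CPM after CD45 RIT. All TBI and IgG RIT libraries lay above all untreated ones, and TBI replicate 6 lay at the level of IgG RIT. In the fit of all libraries the values were 2.23 ± 1.10 after TBI (edgeR adjusted p 0.314) and 3.33 ± 1.22 after IgG RIT (0.0804). With both CD45 RIT libraries left out they were 2.40 ± 0.49 (0.00811) and 3.52 ± 0.54 (6.91e-04). Leaving out either CD45 RIT library also gave both calls, with adjusted p from 7.29e-04 to 0.0101, and within library numbers under 10 the TBI value was 1.67 ± 0.22 (5.71e-04). After CD45 RIT the value turned on which library was kept, called higher by 2.11 (0.0331) without replicate 2 and lower (2.55e-04) without replicate 1, when the library left had 0 counts. Erythroid markers summed to 175088 CPM in TBI replicate 6 and 132916 to 141074 after IgG RIT, where Ackr1 was highest. In CD45 RIT replicate 1 they summed to 191271 CPM, and Ackr1 was at 110 CPM. Markers within the list differed. The globin gene Hba-a1 averaged 3301 CPM untreated, 21056 after TBI, 54050 after IgG RIT and 49522 after CD45 RIT. Klf1 averaged 456, 943 and 1713 CPM in the first 3 groups. It had 0 counts in 1 CD45 RIT library and 7580 in the other. The part of erythroid cells in the Ackr1 values was not tested. Exons of Ackr1 share 361 bases with Cadm3 on the same strand, which had at most 668 counts.

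Ackr4, which takes up Ccl19, Ccl21 and Ccl25, was at 36.6, 42.2, 22.1 and 29.1 CPM untreated, 7.78, 5.39, 8.15, 6.06 and 2.30 CPM after TBI, 16.7, 10.9 and 18.6 CPM after IgG RIT, and 429 and 561 CPM after CD45 RIT. The 4 groups did not overlap. Against untreated it fell after TBI, by 2.45 ± 0.34 on the log2 scale (edgeR adjusted p 0.00246), and rose after CD45 RIT, by 3.93 ± 0.42 (4.12e-05), while IgG RIT gave -1.08 ± 0.38 (0.0729). It was higher after CD45 RIT than after IgG RIT by 5.01 ± 0.49 (1.83e-05). With the library number as a term the rise after CD45 RIT was 5.50 ± 0.62 (2.26e-04). DESeq2, and edgeR with both CD45 RIT libraries left out, called Ackr4 higher after IgG RIT than after TBI, where the main value was 1.37 ± 0.35 (0.0905). Its exons share 479 bases with Acad11 on the other strand, which had at most 1857 counts.

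Ackr3, a scavenging receptor of stromal and vascular cells, was at 0, 0.479, 1.13 and 1.04 CPM untreated, 0.106, 0.657, 0.954, 0.576 and 4.81 CPM after TBI, 0, 1.44 and 0.893 CPM after IgG RIT, and 112 and 301 CPM after CD45 RIT. Both CD45 RIT libraries lay far above all others. The log2 fold change was 8.28 ± 1.64 against untreated (edgeR adjusted p 0.00258) and 8.03 ± 1.85 against IgG RIT (0.00527). The last, Ackr2, a scavenger of inflammatory CC ligands, had at most 20 counts and was called in no comparison by edgeR.

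**Figure D5:**
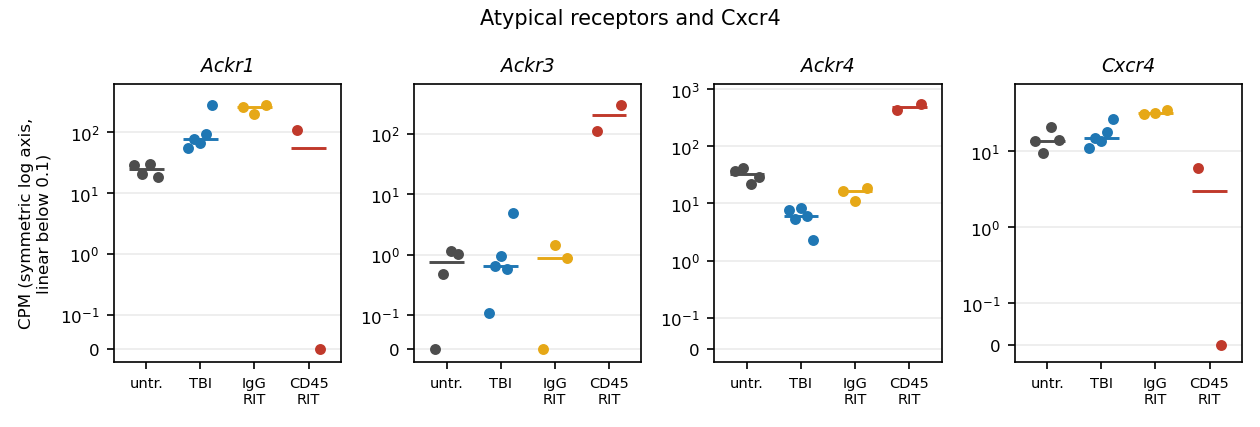
CPM by library (points, symmetric log axis, linear below 0.1) and group median (bar) of Ackr1, Ackr3, Ackr4 and Cxcr4. Ackr1 reaches 202 to 281 CPM after IgG RIT and is at 110 and 0 CPM after CD45 RIT, and Ackr4 is at 429 and 561 CPM after CD45 RIT.

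Of the 37 tested members, edgeR with all libraries called 23 in at least 1 of the 5 comparisons and 14 in none. The 22 members that were not tested had too few counts, and 4 of them (Ccl11, Ccl20, Ccl21b and Ccl26) had no counts at all. Beside Ccl8, the untested members had at most 34 counts in any library (Ccl28 in untreated replicate 1). Ccl21a and Ccl21b, and Ccl27a and Ccl27b, are near-identical copies between which reads can be split, so their counts are uncertain.

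Other genes of the pathway were taken from lists that leave out the members. Of 5 tested chemokine genes outside the name pattern, 1, 2 and 1 were lower after TBI, IgG RIT and CD45 RIT against untreated. For this and the next lists, the shares of all genes were 3.38%, 10.7% and 18.6% lower and 0.921%, 5.75% and 14.5% higher. Pf4, a platelet chemokine, was lower after TBI by -2.82 ± 0.66 (edgeR adjusted p 0.0338) and after IgG RIT by -2.73 ± 0.81 (0.0379). Mif, an inflammatory ligand of CXCR2 and CXCR4, averaged 303 CPM untreated, 126 CPM after IgG RIT and 37.7 CPM after CD45 RIT (-1.26 ± 0.33, edgeR adjusted p 0.0232, and -3.01 ± 0.42, 2.87e-04). Of 29 signalling genes below the receptors, 1, 2 and 4 were higher and 2, 9 and 9 lower in the same order. Gnai2, the inhibitory G protein subunit, was higher after IgG RIT by 0.77 ± 0.18 (0.0135), and Arrb1, a beta-arrestin, by 2.63 ± 0.38 (0.00211). These were the 2 higher ones, while 9 were lower and the list's median log2 fold change after IgG RIT was -1.86. Of 14 genes that process or present chemokines, 1, 1 and 7 were higher and 5, 3 and 2 lower. Elane and Ctsg, neutrophil proteases also held by the neutrophil list, had the highest mean CPM of those called and were lower after TBI by -4.06 ± 0.54 (0.00216) and -3.89 ± 0.45 (0.00136). For CD45 RIT against IgG RIT the lists of 29 and 14 genes gave 4 and 6 higher and 8 and 3 lower, where 20.2% of all genes were higher and 17.5% lower.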

How the data were processed

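The authors deposited 1 table of raw counts per gene for the 14 libraries, with gene coordinates, lengths and types, and whole-number counts that sum to a different total in each library. RNA from the sorted cells was amplified with SMART-Seq v4 and made into libraries with Nextera XT, per the labels' protocols. Per the submitters' processing notes STAR 2.7.7a, FastQC 0.11.9 and edgeR 3.36.0 were used and the build was hg38. The gene identifiers in the file header and rows are mouse, and 54587 of them, among them 56 of the 59 members, have the coordinates of GENCODE M21 (GRCm38), so that build is used here. The counting tool and whether it used strand are not given in the sources used here, so reads of overlapping genes cannot be told apart.

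The counts were tested with edgeR 4.0.16 (R 4.3.3, limma 3.58.1) by its quasi-likelihood test in 1 fit of all 14 libraries, after filterByExpr (minimum count 10, minimum total 15) and TMM scaling. P-values were adjusted by Benjamini-Hochberg over all 21509 genes tested. CPM of single genes uses TMM-scaled library sizes, and sums over lists use total counts. Against a group at 0, a fold is a bound from a floor of 3 counts per library, and intervals on ratios cover counting error only. Members printed by library are those called in any comparison with a mean of at least 10 CPM in a group, plus Cxcr4, Ackr3, Ackr1, Cxcr2, Ccr2, Ccl2, Ccl5, Cx3cr1 and Cx3cl1. 1 further member is counted in the totals but not reported here. Alternatives were RLE factors, no scaling factors, no filter, DESeq2 1.42.0, a replicate block, library number as a term or a limit, and leaving out each library. The members and lists were chosen with earlier results of these data known.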

Additional observations from a re-analysis of the deposited data

Results flagged for a closer look

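In 42 groups of 4 or 5 libraries, the CPM of the library farthest from the others was compared with the group's range. Chance alone meets this check in about 1 in 20 groups only where values are normally distributed. CPM are skewed and some lie near 0, so no chance rate is known here. The check was met 9 times. Of these, 5 were in TBI replicate 6, the TBI library with a library number of 10 and an erythroid marker sum of 175088 CPM. There Ackr1 was at 284 CPM (56.1 to 93.6 in the other TBI libraries), Cxcl14 at 30.0 (1.32 to 5.87), Ackr3 at 4.81 (0.106 to 0.954), Cxcl9 at 2.08 (0.0346 to 0.572) and Ccl2 at 1.15 (0.0339 to 0.354). In TBI replicate 1 Cxcl13 was at 0.531 CPM, from 15 counts, and Cxcl1 at 0.0354 CPM, from 1 count, where the other TBI libraries had 0 counts of Cxcl1. Among the untreated libraries, replicate 1 had 31.3 CPM of Cx3cl1 (12.4 to 14.4 in the others). Untreated replicate 2 had 0.120 CPM of Cxcl13, from 4 counts.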

How the results depend on the processing

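Of 51 member changes called, 11 were called under every alternative run in that comparison: Ackr3, Ackr4, Ccl19, Ccl6, Ccr2, Cx3cl1, Cxcl14, Cxcl5 and Cxcl9 for CD45 RIT against IgG RIT, and Ackr4 and Ccl4 for CD45 RIT against untreated (DESeq2 gave no p for Cxcl9 and Cxcl14). Over all member changes and alternatives, 880 values kept their direction and call, 151 lost the call and 1 turned, Ccl25 after CD45 RIT against untreated without CD45 RIT replicate 2 (-0.11, against 2.41 without replicate 1). DESeq2 gave 11 members lower for TBI against untreated (7.13% of all genes) and 1 higher for IgG RIT against untreated (11.7%). It gave 7 lower for CD45 RIT against IgG RIT, and 1 higher (3.73%) and 3 lower for IgG RIT against TBI. RLE factors and no filter each gave 0 lower for IgG RIT against TBI. Library numbers under 10 alone gave 1 higher and 14 lower for TBI. The library number as a term gave 0 lower for IgG RIT and 1 higher and 2 lower for CD45 RIT, each against untreated, and 0 lower for IgG RIT against TBI. For CD45 RIT against IgG RIT that term is no check, as both groups share the same number class. Leaving both CD45 RIT libraries out, chosen after seeing the data, gave 1 higher and 10 lower for TBI, 2 higher for IgG RIT, and 1 higher and 2 lower for IgG RIT against TBI. With a replicate block the counts were 0 lower for TBI, 4 lower for IgG RIT, 5 higher and 4 lower for CD45 RIT against untreated, 8 higher and 1 lower for CD45 RIT against IgG RIT, and 0 lower for IgG RIT against TBI. The labels do not say whether replicate numbers pair the libraries. Over 13 pairs of the same number, deviations from the group means correlated at -0.0896 to 0.139, 1 of them over 0.1. A pair of different number reached 0.158. This cannot settle pairing, as deviations of the 2 CD45 RIT libraries from their mean mirror each other. Shares of all genes are not given here for the replicate block, RLE factors, no filter, the fit without CD45 RIT and the remaining DESeq2 counts. Those counts therefore do not show whether members changed more or less often than all genes. The cause of the shifts between settings was not tested.

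Leaving out each library in turn gave 0 to 1 members higher and 3 to 11 lower for TBI against untreated, the fewest without untreated replicate 1 and the most without either CD45 RIT library. IgG RIT against untreated ranged over 0 to 2 higher and 3 to 11 lower, and CD45 RIT against untreated over 10 to 13 higher and 7 to 10 lower. CD45 RIT against IgG RIT ranged over 12 to 17 higher and 2 to 4 lower, and IgG RIT against TBI over 0 to 2 higher and 0 to 2 lower. Where that leaves 1 CD45 RIT library, it is assumed to vary like the other groups. Shares of all genes are not given here for these fits either. Depth limits members near the floor of 0.0785 to 0.215 CPM, such as Ackr2 and Cxcr3.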
